A study of Mus musculus with 6 samples.

Results

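The genes described here are 10 well-known transcriptional outputs and feedback inhibitors of the ERK MAP kinase pathway: Dusp4, Dusp5, Dusp6, Spry2, Spry4, Spred1, Etv1, Etv4, Etv5 and Egr1. They were found by symbol among the 54532 genes of an expression table, and each matched 1 row. The members were chosen by name with the levels of this same comparison already known, so their own values and differences are given as description, without a p-value. All 10 were among the 15197 genes with at least 0.5 FPKM in at least 3 libraries, where FPKM are reads scaled to gene length and library size.

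ERK is the last kinase of a chain in which growth factor receptors switch on RAS, RAS recruits RAF, RAF activates MEK, and MEK activates ERK. Active ERK phosphorylates transcription factors, which first induce immediate early genes such as Egr1 and then a delayed set that includes inhibitors of the chain itself: DUSP phosphatases, which remove the phosphates from MAP kinases, and Sprouty and Spred proteins, which block signalling at the level of RAS and RAF. The PEA3 group of ETS factors (Etv1, Etv4, Etv5) is induced by FGF and ERK signalling, and in the developing lung Etv4, Etv5 and Spry2 are known as responses to FGF10 at the branching tips of the epithelium.

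The study sequenced RNA from mouse lung, per its labels, in 3 libraries labelled young, from mice aged 3 months, and 3 labelled aged, from mice aged 18 months. Strain, sex and any treatment were not given in the sources used, nor whether replicate libraries were made from different animals, so p-values reflect the spread between libraries, which may be technical. Higher and lower below refer to the aged label relative to the young one. Since bulk RNA was measured, fewer cells of a type and less RNA per cell cannot be told apart.

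The tissue label was not borne out by its markers. The summed level of 7 markers of lung epithelium, among them Sftpc and Scgb1a1, was 0.692 to 0.991 FPKM in the libraries labelled young and 1.33 to 1.77 FPKM in those labelled aged. That of 4 endothelial markers was 0.353 to 0.432 and 0.584 to 0.686 FPKM. The sum of 5 fibroblast markers was 1083 to 1113 FPKM under the young label and 881 to 917 FPKM under the aged one. Of these markers, Col1a1, Col1a2 and Pdgfra were lower in every library labelled aged. Vim overlapped, at 477.6 to 505.5 FPKM under the young label and 490.8 to 501.9 FPKM under the aged one. Thy1 was at or below 0.466 FPKM in every library. The sum of 4 cell cycle markers was 266 to 275 and 301 to 316 FPKM, with Ccnb1 and Aurka higher and Mki67 lower in every library labelled aged. In the list of 7 leukocyte and blood markers, the sum was 10.7 to 12.4 FPKM in the libraries labelled young and 34.3 to 35.6 FPKM in those labelled aged, carried by Cd68 and Lyz2, while Ptprc and Cd3e stayed at or below 0.0953 FPKM. The sum of 8 kidney markers was 132 FPKM in young replicate 1 and 26.4 FPKM in young replicate 3, against 0.816 to 1.83 FPKM in the other libraries. The part of these marker differences between the groups in the results was not tested. Calls of named genes that were lost without both libraries with kidney transcripts are given beside them. Recovered reads ran from 16649061 to 17456715 in the 6 libraries. The library size implied by the FPKM values ran from 16959288 to 17361949, so that for a gene 1 kilobase long 3 reads equal 0.173 to 0.177 FPKM. Recovered reads were above that size in each library labelled young and below it in each labelled aged.

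Of the 10 genes, 7 were higher in the libraries labelled aged, led by the phosphatase genes Dusp4 (4.39-fold), Dusp6 (3.55-fold) and Dusp5 (3.05-fold). Egr1, Etv4, Spry4 and Etv5 were higher by 2.55-fold, 2.26-fold, 1.93-fold and 1.69-fold, as ratios of mean FPKM. Etv1 was 1.61-fold lower and Spry2 1.17-fold lower, and the levels of Spred1 overlapped between the groups. In the limma fit over all genes, 9 of the 10 were past the threshold of adjusted p under 0.05, 7 higher and 2 lower. Of all tested genes, 60.0% were past it, 27.7% higher and 32.3% lower, and since the members were chosen with this comparison known, nothing is read from their count. With the libraries centred on their medians, 4988 of all tested genes were higher and 4026 lower, against 4212 and 4903 without centring, and the members stayed at 7 and 2. The groups did not overlap for the same count of 9 members, and for 66.9% of all tested genes. The median log2 fold change, on the log2(FPKM + 1) scale, was 0.80 over the members and -0.03 over all tested genes.

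**Figure D1:**
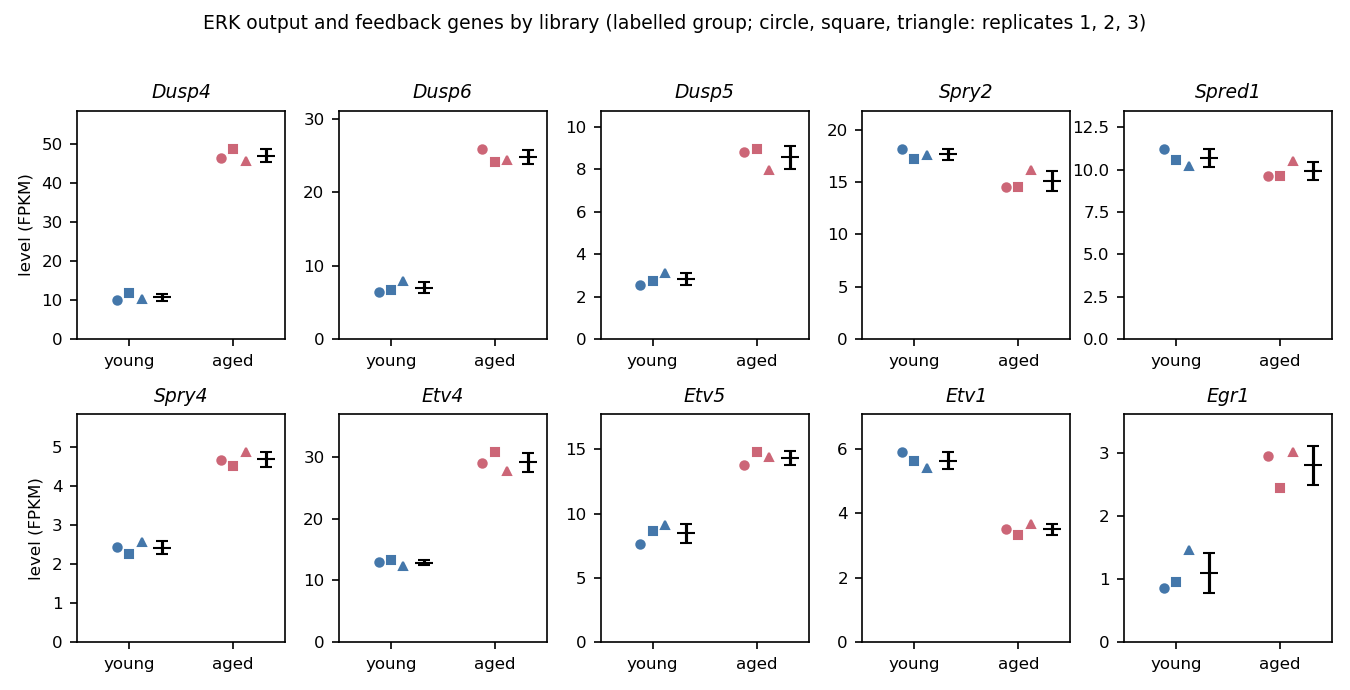
Level in FPKM (linear axes from 0) of each gene in the 3 libraries labelled young (blue) and the 3 labelled aged (red), with circles, squares and triangles for replicates 1, 2 and 3 and the mean ± SD beside them in black. Dusp4, Dusp6, Dusp5, Spry4, Etv4, Etv5 and Egr1 lie higher in all 3 libraries labelled aged, Etv1 and Spry2 lower, and only Spred1 overlaps.

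Dusp4, Dusp5 and Dusp6 encode dual-specificity phosphatases that inactivate MAP kinases. DUSP6 is cytoplasmic and selective for ERK, and DUSP4 and DUSP5 are nuclear. Dusp4 (chromosome 8, 34807297 to 34819894, plus strand, mm10) stood at 10.1, 11.8 and 10.3 FPKM in young replicates 1 to 3 and at 46.6, 48.9 and 45.7 FPKM in aged replicates 1 to 3. The lowest library labelled aged was 3.88 times the highest labelled young, the widest gap of the 10 genes. Its log2 fold change was 2.04 ± 0.06 (standard error from limma, n = 3 in each group here and below), 39th from the top of the 15197 tested genes.

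Dusp6 (chromosome 10, 99263231 to 99267489, plus strand) was at 6.42, 6.73 and 7.88 FPKM in the libraries labelled young and at 26.0, 24.2 and 24.5 FPKM in those labelled aged. All 3 libraries labelled aged were at least 3.07 times the highest labelled young, and the log2 fold change was 1.70 ± 0.07. Dusp5 (chromosome 19, 53529109 to 53542431, plus strand) was the least abundant of these phosphatase genes, at 2.56, 2.75 and 3.12 FPKM in the libraries labelled young and 8.80, 8.97 and 7.95 FPKM in those labelled aged. These levels rest on 109 to 133 reads per library labelled young and 338 to 376 per library labelled aged. Its groups were apart, with a log2 fold change of 1.33 ± 0.07.

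The sequences before the starts of Dusp5 and Dusp6 are shown because both genes were higher by over 3-fold, with that before Spry2, a feedback gene that was lower. RefSeq entries on GRCm38.p6 were used for 6 of the 10 genes (Dusp5, Dusp6, Spry2, Spred1, Etv1 and Etv5). Spry4 and Egr1 were left out of this step, and no entries were found for Dusp4 and Etv4. The promoters of Spry4, Egr1, Dusp4 and Etv4 were therefore not searched. The sequences shown were taken from these RefSeq entries and end where the annotated gene begins. They run 5′ to 3′ in the direction of the gene, with matches to the CArG box (CC, then 6 letters that are each A or T, then GG), the site of serum response factor (SRF), in capitals. The first lies at chr19:53528895-53529108 (plus strand), the second at chr10:99262981-99263230 (plus strand) and the third at chr14:105896820-105897069 (minus strand).
Dusp5: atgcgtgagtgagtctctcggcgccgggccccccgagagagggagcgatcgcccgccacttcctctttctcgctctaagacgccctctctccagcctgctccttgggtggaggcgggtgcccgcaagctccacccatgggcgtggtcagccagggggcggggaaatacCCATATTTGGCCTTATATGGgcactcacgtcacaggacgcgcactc
Dusp6: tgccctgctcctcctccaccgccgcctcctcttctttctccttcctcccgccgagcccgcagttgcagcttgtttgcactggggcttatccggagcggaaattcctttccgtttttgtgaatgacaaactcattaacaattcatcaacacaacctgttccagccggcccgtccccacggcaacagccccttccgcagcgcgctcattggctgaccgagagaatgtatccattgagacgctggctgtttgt
Spry2: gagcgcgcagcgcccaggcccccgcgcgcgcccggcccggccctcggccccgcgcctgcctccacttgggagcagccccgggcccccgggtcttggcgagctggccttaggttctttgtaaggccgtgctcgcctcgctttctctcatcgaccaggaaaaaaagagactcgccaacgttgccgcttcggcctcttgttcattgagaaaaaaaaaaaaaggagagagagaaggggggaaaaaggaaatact
Dusp5 carried a pair of CArG boxes side by side, CCATATTTGG at -82 to -73 and CCTTATATGG at -72 to -63 from the RefSeq start. A CArG box was found in 1.47% of 32851 mouse promoter windows of 250 bases. Both strands were searched in the 8 windows of these 6 genes. No window held the ETS site CCGGAA (12.0% of all promoter windows), the Capicua octamers TGAATGAA (1.08%) and TGAATGGA (1.01%), the AP-1 site TGANTCA (6.75%), the cyclic AMP response element TGACGTCA (1.55%) or the EGR site GCGNGGGCG (4.70%). The CArG box was absent from the other windows. A match is a match of letters only, and these data did not measure binding.

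Dusp4, Dusp5 and Dusp6 together went from 20.6 ± 1.27 FPKM (SD) in the libraries labelled young to 80.5 ± 2.07 FPKM in those labelled aged. The other 7 genes of the MAP kinase phosphatase family (Dusp1, Dusp2, Dusp7, Dusp8, Dusp9, Dusp10 and Dusp16) summed to 52.3 ± 0.306 and 47.2 ± 0.842 FPKM. Of the family's summed level, these 3 members thus held 26.8% to 29.1% per library labelled young and 62.8% to 63.2% per library labelled aged, where summing per-length levels treats each gene alike. None of the other 7 rose, 1 fell and 6 were not past the threshold, with a median log2 fold change of -0.24. The gene that fell was Dusp16, whose product acts on the stress kinases JNK and p38, at 4.72 ± 0.322 against 1.87 ± 0.0769 FPKM (2.53-fold lower, limma adjusted p = 2.84e-05). Dusp1, the immediate early phosphatase and most abundant of the 7, stood at 19.4 ± 0.312 and 18.7 ± 0.159 FPKM (limma adjusted p = 0.164), and Dusp7, another ERK phosphatase, at 10.1 ± 0.148 and 10.1 ± 0.301 FPKM (limma adjusted p = 0.883).

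**Figure D2:**
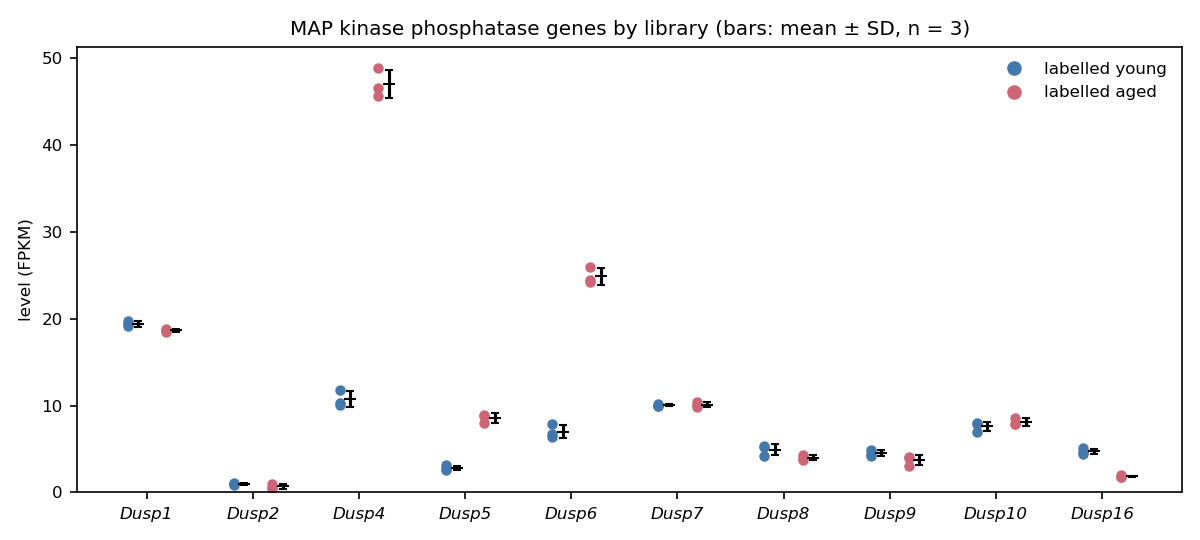
Level in FPKM (linear axis from 0) of the 10 MAP kinase phosphatase genes in each library labelled young (blue) or aged (red), with mean ± SD in black. Dusp4, Dusp5 and Dusp6 are higher in every library labelled aged, Dusp16 is lower, and the group means of Dusp1, like those of Dusp7, differ by less than 1 FPKM.

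Sprouty and Spred proteins are membrane-associated inhibitors that ERK signalling induces. Sprouty proteins bind adaptors and RAF, and Spred1 brings the RAS inactivator neurofibromin to the membrane. Spry4, Spry2 and Spred1 did not move together. Spry4 (chromosome 18, 38586268 to 38601268, minus strand) was at 2.44, 2.26 and 2.58 FPKM in the libraries labelled young and 4.67, 4.51 and 4.87 FPKM in those labelled aged. Its groups were apart by 1.75-fold, and its log2 fold change was 0.73 ± 0.06. Within Spry4, on the opposite strand, lie the short RNA genes Gm27369 and Gm27804, which reached at most 0.977 FPKM.

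Spry2 (chromosome 14, 105891947 to 105896819, minus strand) was at 18.2, 17.2 and 17.6 FPKM in the libraries labelled young and 14.6, 14.6 and 16.2 FPKM in those labelled aged. The groups were apart, but the lowest library labelled young was only 1.06 times the highest labelled aged, and the log2 fold change was -0.21 ± 0.05. Without young replicates 1 and 3, which carried kidney transcripts, the log2 fold change was -0.17 and Spry2 was no longer past the threshold. Spred1 (chromosome 2, 117121374 to 117182279, plus strand) was at 11.2, 10.6 and 10.2 FPKM in the libraries labelled young and 9.64, 9.64 and 10.5 FPKM in those labelled aged. Aged replicate 3 lay above young replicate 3, and the log2 fold change was -0.10 ± 0.05. Among the other genes of the family, Spred2 fell from 14.5 ± 0.295 to 12.1 ± 0.876 FPKM (log2 fold change -0.24, limma adjusted p = 0.00751; without both libraries with kidney transcripts -0.23 and 0.114), Spred3 was at 2.77 ± 0.245 and 2.38 ± 0.106 FPKM (limma adjusted p = 0.0870), and Spry1 and Spry3 were at or below 0.106 FPKM.

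The PEA3 group factors bind the same ETS core sequence and are close relatives, yet they went in opposite directions. Etv4 (chromosome 11, 101769742 to 101785371, minus strand) was at 13.0, 13.3 and 12.4 FPKM in the libraries labelled young and 28.9, 30.7 and 27.7 FPKM in those labelled aged. The groups were 2.08-fold apart at their nearest libraries, with a log2 fold change of 1.11 ± 0.05. Etv5 (chromosome 16, 22381309 to 22439719, minus strand) was at 7.67, 8.65 and 9.09 FPKM in the libraries labelled young and 13.7, 14.8 and 14.4 FPKM in those labelled aged. All libraries labelled aged were above those labelled young, and the log2 fold change was 0.70 ± 0.06.

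Etv1 (chromosome 12, 38779380 to 38870484, plus strand) was at 5.89, 5.62 and 5.39 FPKM in the libraries labelled young and 3.53, 3.32 and 3.65 FPKM in those labelled aged. Here every library labelled aged was below every library labelled young, and the log2 fold change was -0.56 ± 0.05. Summed over the 3 genes, the level went from 27.0 ± 0.529 to 46.9 ± 1.66 FPKM. Etv4 held 46.2% to 48.9% of that sum per library labelled young and 60.5% to 62.9% per library labelled aged. Etv1 held 20.0% to 22.2% and then 6.81% to 7.99%, while the share of Etv5 overlapped, at 28.9% to 33.8% and 29.7% to 31.5%. The length used for Etv1, 13296 bases, joins the exons of 13 annotated transcripts, and the transcript with the longest coding part has 6576 bases, so its level per length depends on which transcripts were present.

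**Figure D3:**
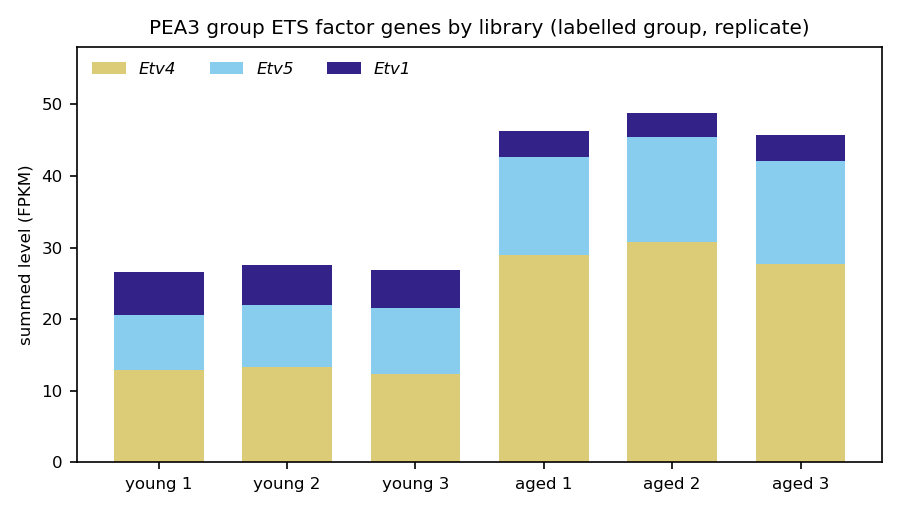
Stacked bars (linear axis from 0) of the level in FPKM of Etv4, Etv5 and Etv1 in each library. The sum is 26.5 to 27.6 FPKM in the libraries labelled young and 45.7 to 48.8 FPKM in those labelled aged, and the Etv1 segment is smaller in the latter.

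Egr1, the immediate early zinc finger factor (chromosome 18, 34859823 to 34864984, plus strand), was the least abundant member in both groups. It was at 0.868, 0.963 and 1.46 FPKM in the libraries labelled young, from 67, 75 and 113 reads, and at 2.94, 2.45 and 3.01 FPKM in those labelled aged, from 227, 186 and 232 reads. The groups were 1.68-fold apart at their nearest libraries, and young replicate 3 was the highest of its group. The log2 fold change of 0.87 ± 0.12 understates a ratio at so low a level, and it was 1.38 with limma's voom on the recovered reads. Of the related factors, Egr3 fell from 1.27 ± 0.151 to 0.805 ± 0.0998 FPKM (limma adjusted p = 0.0170), a log2 fold change of -0.33. Its call was lost without young replicate 2 (limma adjusted p = 0.0518), young replicate 3 (0.0564), aged replicate 1 (0.0532) or both libraries with kidney transcripts (0.0948), and with no filter on low values (0.063), while the log2 fold change stayed between -0.35 and -0.29. Egr2, below the filter and not tested, was at 0.103, 0.102 and 0.0852 FPKM in the libraries labelled young (17 reads in all) and 0.479, 0.312 and 0.634 FPKM in those labelled aged (83 reads), so its groups were apart, with the higher levels under the aged label as for Egr1. Egr4 was listed at 0 in all 6 libraries. Nab2, an EGR corepressor that EGR factors induce, rose from 10.2 ± 0.677 to 14.4 ± 1.30 FPKM (log2 fold change 0.46, limma adjusted p = 0.00173; without both libraries with kidney transcripts 0.37 and 0.051), and its relative Nab1 was at 20.1 ± 0.895 and 19.3 ± 0.428 FPKM (limma adjusted p = 0.278).

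The order of the members by level per length differed between the groups. In the libraries labelled young, Spry2 was highest at 17.7 ± 0.518 FPKM, followed by Etv4, Dusp4, Spred1, Etv5, Dusp6, Etv1, Dusp5, Spry4 and Egr1. Among neighbours in that order, Dusp4 and Spred1, Etv5 and Dusp6, and Dusp5 and Spry4 overlapped. In the libraries labelled aged, Dusp4 was highest at 47.1 ± 1.64 FPKM, followed by Etv4, Dusp6, Spry2, Etv5, Spred1, Dusp5, Spry4, Etv1 and Egr1, and only Spry2 and Etv5 overlapped as neighbours. Dusp6 thus moved from the sixth place to the third, and Etv1 from the seventh to the ninth.

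The gene models of the members were compared with GENCODE M21 on the same assembly. For 9 of the 10 the position and the length used for FPKM were identical, and for Spry4 the annotated length was 4755 rather than 4587 bases. The genes span 4259 bases (Dusp6) to 91105 bases (Etv1). The chosen transcripts of Spry2, Spry4 and Egr1 have 2 exons, that of Dusp6 has 3, and those of the PEA3 group have 13. The pentamer ATTTA, the core of AU-rich elements that shorten the life of many induced mRNAs, occurred in the 3′ UTR of 9 of the 10, against 67.6% of 10836 tested protein-coding genes. The share was not matched for length, and the 3′ UTRs of the members ran from 619 bases (Etv4) to 4715 bases (Etv1). Per kilobase the pentamer ranged from 0 (Etv4) to 3.39 (Etv1), where the median over the tested protein-coding genes was 1.29. Dusp5 (0.902), Dusp6 (0.841) and Etv4 lay below that median and the other members above it.

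The genes most like Dusp6 across the 6 libraries were sought among tested genes outside the members with a mean of at least 1 FPKM. They were Prkcsh, Wars, Ctsd, Ndc80 and Fam32a, with Pearson's r of 0.999 on the log2(FPKM + 1) scale for each. Prkcsh encodes the beta subunit of glucosidase II, Wars the tryptophanyl-tRNA synthetase, Ctsd the lysosomal protease cathepsin D and Ndc80 a kinetochore protein. Ctsd, for example, was at 66.4 ± 4.18 FPKM in the libraries labelled young and 150 ± 3.80 FPKM in those labelled aged. Of 12963 genes compared, 2066 (15.9%) had an r of at least 0.95 with Dusp6, and all points share the division into 2 groups of libraries.

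The other genes of the pathway were taken from 12 lists with 152 entries, of which 122 were tested. Of these, 43 rose, 41 fell and 38 were not past the threshold, and the median log2 fold change was 0.01. The called genes were 68.9% of those tested, against 60.0% over all tested genes, where 27.7% were higher and 32.3% lower. Median centring gave 50 higher and 35 lower. Like the members, these lists were chosen with earlier results of these data known. Their shares, counts, medians and adjusted p-values are therefore given as description. Ligands of receptor tyrosine kinases had 10 of 12 tested genes higher, 1 lower and 1 that did not pass, and a median of 0.69. Kitl, the ligand of KIT, rose from 15.1 ± 0.586 to 42.0 ± 1.60 FPKM (2.78-fold, limma adjusted p = 2.78e-06). The EGF receptor ligand gene Ereg rose 2.63-fold to 7.32 ± 0.259 FPKM, Fgf2 rose 3.53-fold to 2.85 ± 0.360 FPKM, and Fgf7, the most abundant ligand gene of the list, rose 1.71-fold to 49.3 ± 4.58 FPKM. Igf1, named because it is the only ligand gene that fell, went from 5.97 ± 0.218 to 2.69 ± 0.15 FPKM. Of the ligand genes, 9, among them Fgf10, were at or below 0.943 FPKM in every library and were not tested.

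Of the receptor genes, 3 of 12 tested were higher, 7 were lower and 2 did not pass (median log2 fold change -0.29). Fgfr1, a receptor for FGF2, rose 2.29-fold from 15.2 ± 0.197 to 34.8 ± 0.814 FPKM (limma adjusted p = 2.34e-06). The EGF receptor family gene Erbb2 fell from 13.0 ± 0.127 to 7.98 ± 0.228 FPKM, Erbb3 was 2.80-fold lower, and Insr, the insulin receptor, was 1.75-fold lower. Of the adaptors and exchange factors that load RAS, 1 of 11 was higher (Rasgrp3), 5 were lower and 5 were not past the threshold. Sos2 fell from 5.41 ± 0.172 to 3.77 ± 0.0808 FPKM. The other calls as lower, of Grb2, Frs3, Plcg1 and Sos1, were lost without both libraries with kidney transcripts. Their log2 fold changes in that fit ran from -0.316 (Frs3) to -0.115 (Grb2). Ptpn11, which encodes the SHP2 phosphatase, stood at 38.1 ± 1.59 and 38.1 ± 2.31 FPKM (limma adjusted p = 0.992).

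The kinase chain itself was lower at several steps, with 3 of 16 tested genes higher, 6 lower and 7 not past the threshold (median log2 fold change -0.10). Map2k1, which encodes MEK1, fell from 35.0 ± 0.155 to 25.6 ± 0.179 FPKM (limma adjusted p = 2.79e-05), and Mapk3, which encodes ERK1, fell from 47.6 ± 1.41 to 36.8 ± 1.55 FPKM (limma adjusted p = 0.000343). Braf was 1.45-fold lower. Nras rose 1.36-fold to 45.1 ± 1.86 FPKM, and the MEK scaffold gene Lamtor3 rose 1.74-fold to 19.4 ± 0.440 FPKM. Kinases that ERK activates had 0 of 7 tested genes higher, 5 lower and 2 not past the threshold, and the RSK genes Rps6ka1 and Rps6ka3 were 1.71-fold and 1.67-fold lower.

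Among RAS GTPase-activating proteins and other inhibitors, 4 of 12 tested genes were higher, 6 lower and 2 not past the threshold. Errfi1 (MIG6), a feedback inhibitor of the EGF receptor, was at 10.9, 9.15 and 10.1 FPKM in the libraries labelled young and 45.6, 45.9 and 37.7 FPKM in those labelled aged, a 4.28-fold rise (limma adjusted p = 9.26e-06). Lztr1, an adaptor for RAS degradation, fell 1.28-fold. Factors that carry or repress ERK output had 8 of 13 tested genes higher, 3 lower and 2 not past the threshold (median log2 fold change 0.17). The calls of Elk3, Etv3 and Atxn1 as higher, and of Mrtfb and Srf as lower, were lost in some fits that left out a single library. All of these calls, and those of Elk1 and Mrtfa as higher, were also lost without both libraries with kidney transcripts. Cic, the Capicua repressor that ERK relieves from PEA3 and Dusp genes, fell from 21.1 ± 0.495 to 15.3 ± 0.962 FPKM (limma adjusted p = 0.000347). Ets2 rose 1.41-fold to 17.7 ± 0.359 FPKM and the ETS repressor gene Erf rose 1.31-fold to 37.1 ± 1.59 FPKM. Srf, which binds CArG boxes, was lower at 15.0 ± 1.91 against 18.7 ± 0.529 FPKM (log2 fold change -0.31, limma adjusted p = 0.0196). The call was lost without young replicate 2 (log2 fold change -0.28, limma adjusted p = 0.0618), without both libraries with kidney transcripts (-0.35 and 0.123) and with no filter on low values (-0.31 and 0.0516).

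In a further list of 19 genes known to respond to ERK, 11 of 17 tested were higher, 2 were lower and 4 did not pass, and the list had a median log2 fold change of 0.47. Ccnd1, cyclin D1, rose from 57.6 ± 1.24 to 167 ± 2.13 FPKM (2.89-fold, limma adjusted p = 1.11e-06), and Mcl1, a survival gene of the BCL2 family, rose 1.57-fold to 140 ± 2.26 FPKM. The AP-1 genes Junb and Fosl1 rose 1.85-fold and 2.53-fold. Both genes that fell, Myc at 39.8 ± 1.53 against 49.3 ± 1.83 FPKM and Ier3 at 14.2 ± 0.552 against 18.6 ± 1.06 FPKM, are named because they are the whole of that count. The stress MAP kinases p38 and JNK and their kinases had 2 of 10 tested genes higher, 3 lower and 5 not past the threshold. Map2k3, a p38 kinase, rose 1.89-fold to 44.7 ± 2.08 FPKM and Mapk9 (JNK2) fell 1.45-fold. Of the 84 calls in the 12 lists, 68 held under all 15 alternatives other than leaving out both libraries with kidney transcripts, 54 held without those libraries, and none reversed under any of the 16.

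**Figure D4:**
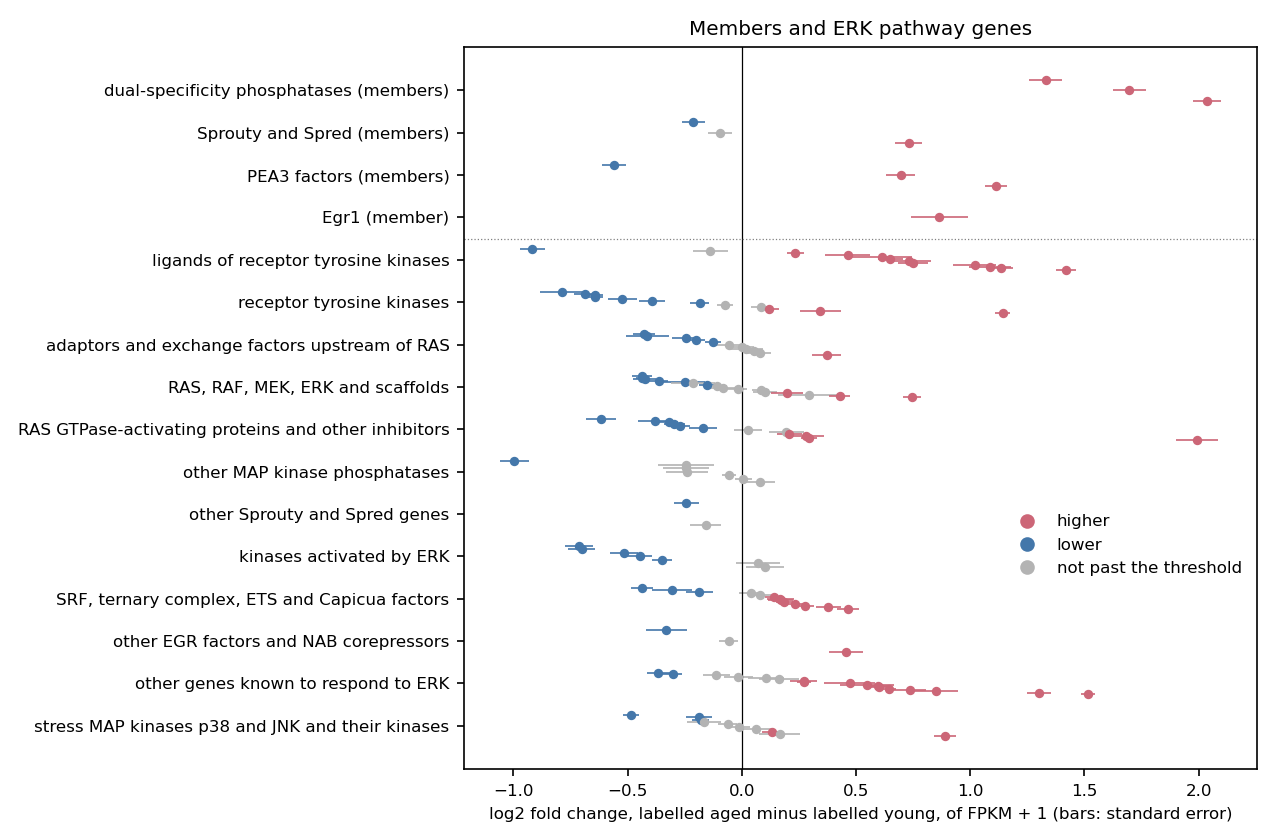
Log2 fold change of FPKM + 1 (labelled aged minus labelled young, bars: standard error) for each tested gene, with the members above the dotted line and the 12 pathway lists below it. Red points passed the threshold as higher, blue as lower and grey did not pass; the phosphatase members lie between 1.33 and 2.04, and the kinases activated by ERK are grey or blue.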

How the data were processed

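Total RNA from TRIzol lysates was sequenced on an Illumina NovaSeq instrument with paired ends, per the labels' protocols. Per the submitters' processing notes, HISAT2 2.0.5 was the aligner and mm10 the build. How reads were counted, with which annotation and whether by strand, was not given in the sources used here.

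The authors' single deposited table holds FPKM for 54532 genes. Value times gene length was a whole multiple of 1 step per library (100% of values, tolerance 0.01), so reads could be recovered. Replicate libraries differed by more than sampling noise (chi-square per degree of freedom 2.25 to 4.93). Genes with at least 0.5 FPKM in at least 3 libraries were compared with limma 3.58.1 (R 4.3.3) on log2(FPKM + 1), with an intensity trend in the variance, 2-sided tests and Benjamini-Hochberg adjustment over 15197 genes at 0.05. The script was tested on simulated data. Folds are ratios of mean FPKM.

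The members and the gene lists were chosen with earlier results of these data known. Named genes were all members, up to 4 called genes per list by size of change and up to 2 by level. To these were added the 5 genes outside the members most like Dusp6. Some genes that this rule names are not reported here. List entries Mrtfa and Mrtfb were matched by identifier. The alternatives were other pseudocounts, filters, centring, TPM scaling, no trend, a replicate block, each library left out, and, added after the data were seen, voom on recovered reads and a fit that drops young replicates 1 and 3, the libraries with kidney transcripts. Other steps used Python 3.11.15 and pandas 2.3.3.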

Additional observations from a re-analysis of the deposited data

How the results depend on the processing

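Under 16 alternatives the 10 members kept their direction. They were chosen with this comparison known, so nothing is read from how many were called. The main fit called 9 members and 60.0% of all tested genes. Among the alternatives that keep more than a single library per group, that share was 53.7% to 64.6%, or 27.7% with no filter on low values. The same count of 9 was past the threshold in each but 1: without young replicates 1 and 3, which carried kidney transcripts and leave a single library labelled young that is assumed to vary like the others, 8 were, as Spry2 was lost (log2 fold change -0.17). That setting also cut the called pathway genes from 84 to 55 and all called genes from 9115 to 6234, with fewer libraries in the fit. Ranges of log2 fold change were 1.91 to 2.13 for Dusp4, 1.64 to 1.83 for Dusp6, 1.28 to 1.61 for Dusp5 and 0.79 to 1.38 for Egr1, whose low level makes it depend on the pseudocount (1.30 at 0.1). With the replicate block, 9 members, 75 pathway genes and 8441 genes in all were called. The replicate numbers were not stated to pair the libraries. Deviations of same-numbered libraries correlated at -0.008 to 0.019, and those of different-numbered libraries at -0.040 to 0.036. No sign of pairing was thus seen, but such correlations cannot exclude it. Leaving out each library in turn gave 8155 to 8708 called genes and 74 to 82 called pathway genes. edgeR and DESeq2 on recovered reads were planned but not run, because the deposited unit is FPKM. A level under about 0.173 FPKM at 1 kilobase rests on fewer than 3 reads.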
